A study of Mus musculus with 6 samples.

Results

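The guanylate-binding proteins are a family of interferon-inducible GTPases, and 8 of their genes, Gbp2, Gbp3, Gbp4, Gbp5, Gbp6, Gbp7, Gbp8 and Gbp9, were taken by gene symbol from the deposited table of 15458 rows. All 8 had a row and all 8 passed the filter on low counts, among 13120 genes tested. Libraries were made from FACS-sorted Kupffer cells, the macrophages that reside in liver sinusoids, of wild type C57BL/6 mice that carried tumours of Hepa1-6, a mouse hepatoma line. In the KC_Epo group the tumour cells overexpressed Epo (Hepa1-6_EpoOE), and in the KC_EV group they held an empty vector (Hepa1-6_EV), so tumour-bearing was common to both groups. Cells were taken on day 18 after implantation, with 3 libraries in each group. The vector's promoter, the number of tumour clones, and the age and sex of the mice are unstated in the sources used here. No label ties a library to its own animal, so the p-values below speak to spread among these libraries, which may be technical.

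GBPs are large GTPases related to dynamin whose transcription is induced by interferon-gamma, in part through IRF1, and by type I interferons. In macrophages they gather on vacuoles that hold bacteria or parasites and on cytosolic bacteria, where they help to break membranes and to bring lipopolysaccharide and DNA to the caspase-11 and AIM2 inflammasomes. The mouse genes lie in separate gene clusters on chromosomes 3 and 5, and members of a cluster are close relatives. On chromosome 3 the RefSeq order is Gbp5, Gbp7, Gbp3, Gbp2b and Gbp2, and on chromosome 5 it is Gbp8, Gbp9, Gbp4, Gbp10, Gbp6 and the pseudogene Gbp11. Each cluster thus supplied 4 members. Gbp2b, which older papers call Gbp1, and Gbp10 were not among the 8.

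In KC_Epo the family did not move as a block. Gbp7, Gbp8 and Gbp9 rose, Gbp2 and Gbp4 fell, and Gbp3, Gbp5 and Gbp6 did not pass the test. By the edgeR quasi-likelihood test, with p-values adjusted over all genes tested and a threshold of 0.05, 3 of 8 members were higher, where 16.9% of all genes were, and 2 of 8 were lower, where 15.4% were. In either direction 5 of 8 passed, against 32.3% of all genes. Groups did not overlap for 6 of 8 members, against 48.3% of all genes. KC_Epo lay wholly above for 3 members, against 24.1% of all genes, and wholly below for 3, against 24.2%. The median log2 fold change of the members was -0.14, and that of all genes tested was -0.0045. With 8 genes, these shares rest on few genes and are given as a description. Over all genes 52.4% of calls were higher, a share that was 40.6% under upper-quartile scaling and 24.8% with library sizes only.

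The sorted cells and the groups were read first. Total counts per library were 23201076 to 33280754 in KC_Epo and 29327625 to 32199405 in KC_EV, and a single member had between 399 and 17571 counts in a library. Epo had 29, 44 and 21 counts in the KC_Epo libraries and 0 in each KC_EV library. All 9 Kupffer cell markers on the list used here, among them Clec4f, Vsig4 and Marco, were detected, with summed levels of 35528 to 37428 CPM in KC_Epo and 22239 to 24375 CPM in KC_EV. Of these 9 markers 7 rose and 1, the macrophage marker Adgre1, fell. The list's median was 0.50 on the log2 scale, between the rises of Gbp9 and Gbp8 given below. The part of the Kupffer cell share of a sample in the rises of Gbp7, Gbp8 and Gbp9 was not tested. Transcripts of other cells were present too. In sorted bulk samples, fewer cells of a type and less RNA per cell cannot be told apart.

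Gbp7, a member linked in mouse macrophages to assembly of the phagocyte NADPH oxidase, had the largest rise of the 8. It had 151.9, 170.1 and 153.0 CPM in KC_Epo 1 to 3, against 106.6, 99.5 and 88.6 CPM in KC_EV 1 to 3 (CPM, counts scaled to library size with TMM factors). Every KC_Epo library lay above every KC_EV library. The log2 fold change was 0.69 ± 0.08 (SE, edgeR adjusted p = 8.27e-05), a 1.61-fold difference with a 95% interval of 1.42 to 1.83.

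Gbp8 had the highest level per length of the 8 and varied least between libraries of a group. Its level was 564.7, 556.2 and 551.8 CPM in KC_Epo 1 to 3, against 374.6, 374.0 and 364.4 CPM in KC_EV 1 to 3. The gap between the groups was many times wider than the range within either group. Gbp8 rose by 0.59 ± 0.07 on the log2 scale (SE, edgeR adjusted p = 4.77e-05), or 1.503-fold. Gbp9, its neighbour on chromosome 5, had 191.0, 204.4 and 207.2 CPM in KC_Epo 1 to 3, against 155.8, 158.9 and 146.8 CPM in KC_EV 1 to 3. The groups did not overlap, but the difference was smaller, at 0.38 ± 0.07 on the log2 scale (SE, edgeR adjusted p = 0.00139).

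**Figure D1:**
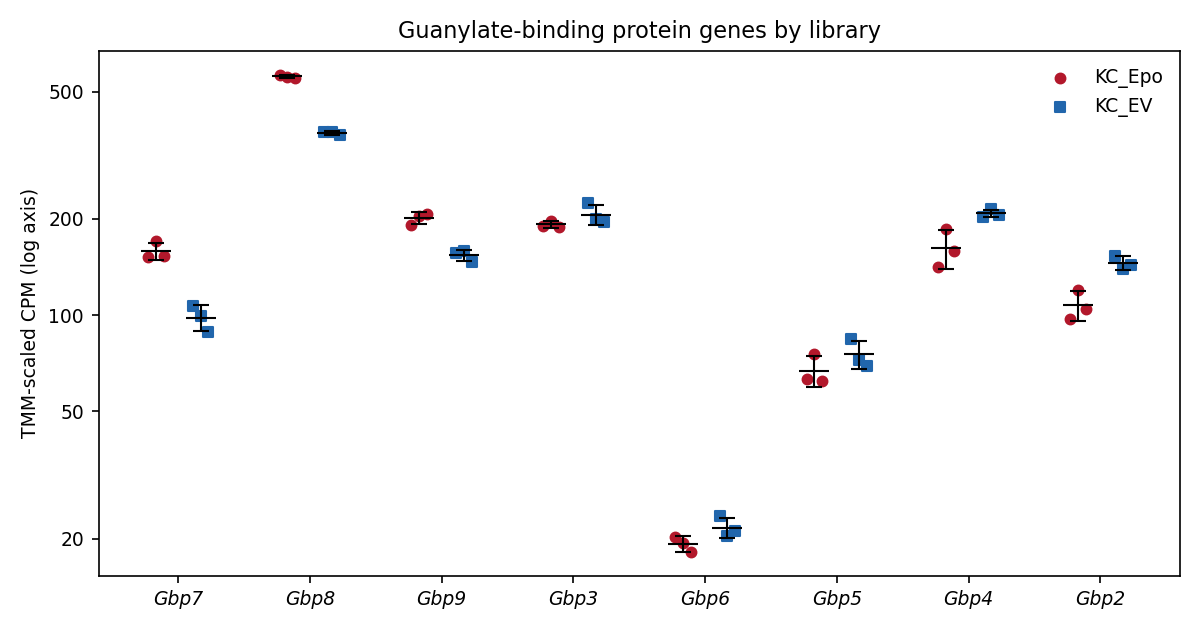
Level of the 8 members in each library, in TMM-scaled CPM on a log axis, with KC_Epo as circles and KC_EV as squares; horizontal bars show the mean and SD of 3 libraries. Gbp7, Gbp8 and Gbp9 stand higher in KC_Epo without overlap, Gbp4 and Gbp2 stand lower without overlap, and Gbp3 and Gbp5 overlap.

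Gbp2, a prenylated GBP that is recruited to vacuoles of Toxoplasma, fell the most among the members. It had 97.4, 120.2 and 104.5 CPM in KC_Epo 1 to 3, against 153.3, 139.5 and 143.1 CPM in KC_EV 1 to 3. The groups did not overlap, and KC_Epo 2 was the highest of its group. The log2 fold change was -0.44 ± 0.08 (SE, edgeR adjusted p = 0.00217), a ratio of 0.739 with a 95% interval of 0.650 to 0.839.

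Gbp4, reported in the mouse to restrain IRF7 in virus-infected cells, had 141.8, 186.3 and 158.3 CPM in KC_Epo 1 to 3, against 203.1, 214.4 and 205.8 CPM in KC_EV 1 to 3. The KC_Epo libraries were all lower but more widely spread. Gbp4 fell by 0.36 on the log2 scale (SE 0.09, edgeR adjusted p = 0.0118). The call was lost without KC_EV 2 (-0.33, adjusted p = 0.0540) and without KC_Epo 3 (-0.33, adjusted p = 0.0673), and the adjusted p ranged from 0.000624 to 0.0673 over the 16 alternatives.

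Markers of sinusoidal endothelial cells and of dendritic cells were lower in KC_Epo along with Gbp2 and Gbp4. The 12 endothelial markers summed to 2432 to 3293 CPM in KC_Epo and 5021 to 5872 CPM in KC_EV, and 9 fell while 1, Cdh5, rose. The count of 9 was 5 without KC_EV 2, without KC_EV 3 or without KC_Epo 3, and each of these also ended the call of Cdh5. Of 9 dendritic cell markers 5 fell, or 3 without KC_Epo 3, and the list's median log2 fold change was -1.05. Xcr1, a receptor of cross-presenting dendritic cells, averaged 1.30 ± 0.291 CPM in KC_Epo and 10.5 ± 0.514 CPM in KC_EV (SD, n = 3 each), a log2 fold change of -3.01. Flt3, a growth factor receptor of these cells, had -1.49, and Zbtb46, a transcription factor of theirs, had -1.57. The summed dendritic level, 271 to 291 CPM in KC_Epo and 277 to 324 CPM in KC_EV, was carried mostly by Batf3 and Clec9a, which did not pass the test. No marker on either list was at 0 throughout a group, and their part in the falls of Gbp2 and Gbp4 was not tested.

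Gbp5, a prenylated member linked to the NLRP3 and AIM2 inflammasomes, had 63.3, 75.4 and 62.0 CPM in KC_Epo 1 to 3, against 84.0, 72.4 and 69.5 CPM in KC_EV 1 to 3. The groups overlapped, since KC_Epo 2 exceeded KC_EV 2 and KC_EV 3. The log2 fold change was -0.17, with a 95% interval of -0.38 to 0.041 (edgeR adjusted p = 0.202).

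Gbp3 had 189.8, 197.0 and 189.1 CPM in KC_Epo 1 to 3, against 223.6, 199.7 and 194.9 CPM in KC_EV 1 to 3. Its groups overlapped too, at a log2 fold change of -0.10 with a 95% interval of -0.26 to 0.058 (edgeR adjusted p = 0.312). Gbp6 had 20.3, 19.3 and 18.2 CPM in KC_Epo 1 to 3, against 23.5, 20.3 and 21.2 CPM in KC_EV 1 to 3. Its groups were close but did not overlap, at -0.17 with a 95% interval of -0.40 to 0.061 (edgeR adjusted p = 0.244). A rise of the size seen for Gbp9 lies outside all of these intervals, while a fall of the size seen for Gbp4 lies inside those of Gbp5 and Gbp6. With library sizes only, which moved the median of all genes to -0.16, Gbp3, Gbp5 and Gbp6 also passed as lower, at -0.26, -0.33 and -0.33.

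**Figure D2:**
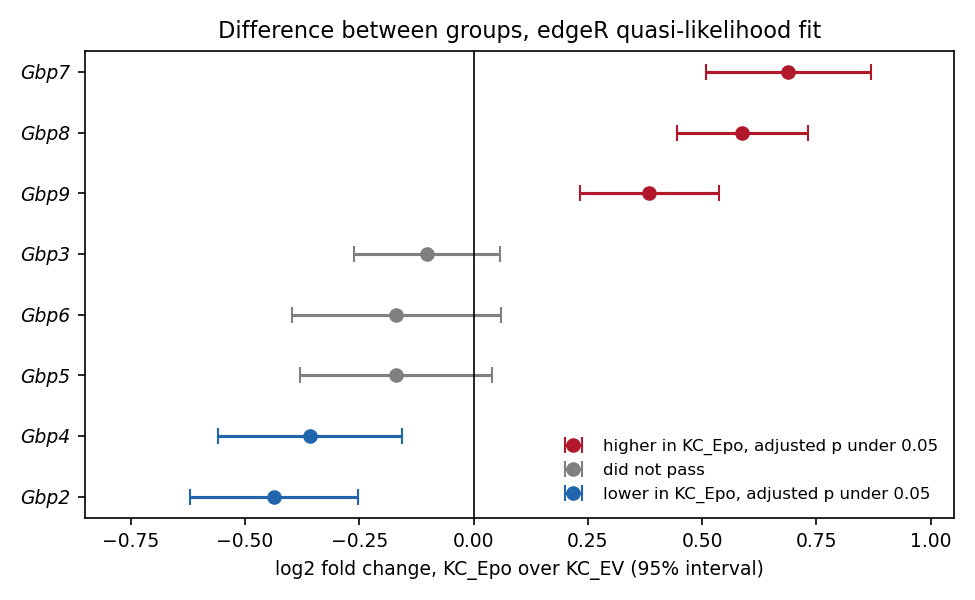
Log2 fold change of each member, KC_Epo over KC_EV, with its 95% interval from the edgeR fit over 6 libraries; colours mark members past an adjusted p of 0.05. Values run from 0.69 for Gbp7 to -0.44 for Gbp2, and the intervals of Gbp3, Gbp6 and Gbp5 include 0.

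The divergence was also read within libraries, where scaling between libraries cancels. Each member was set against the geometric mean of the other 7 in the same library. For all 8 members the KC_Epo and KC_EV ratios did not overlap, a count with no share over all genes to set beside it. The ratios reuse the CPM values given above, in which Gbp3 and Gbp5 overlapped. The log2 ratio of Gbp7 was 0.34 ± 0.02 in KC_Epo and -0.39 ± 0.08 in KC_EV (SD, n = 3 each), a difference of 0.73 (exact two-sided permutation p = 0.1, adjusted over 8 members 0.1). Gbp8 and Gbp9 also gained on the rest, by 0.61 and 0.38. Gbp2 and Gbp4 lost ground, with differences of -0.56 and -0.48, followed by Gbp5 at -0.25, Gbp6 at -0.25 and Gbp3 at -0.17. The exact p was 0.1 for each member, which is the smallest that 3 against 3 libraries allow, so the design cannot reach 0.05. Because each ratio holds the other 7 members, a gain by some is a loss to others by construction.

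**Figure D3:**
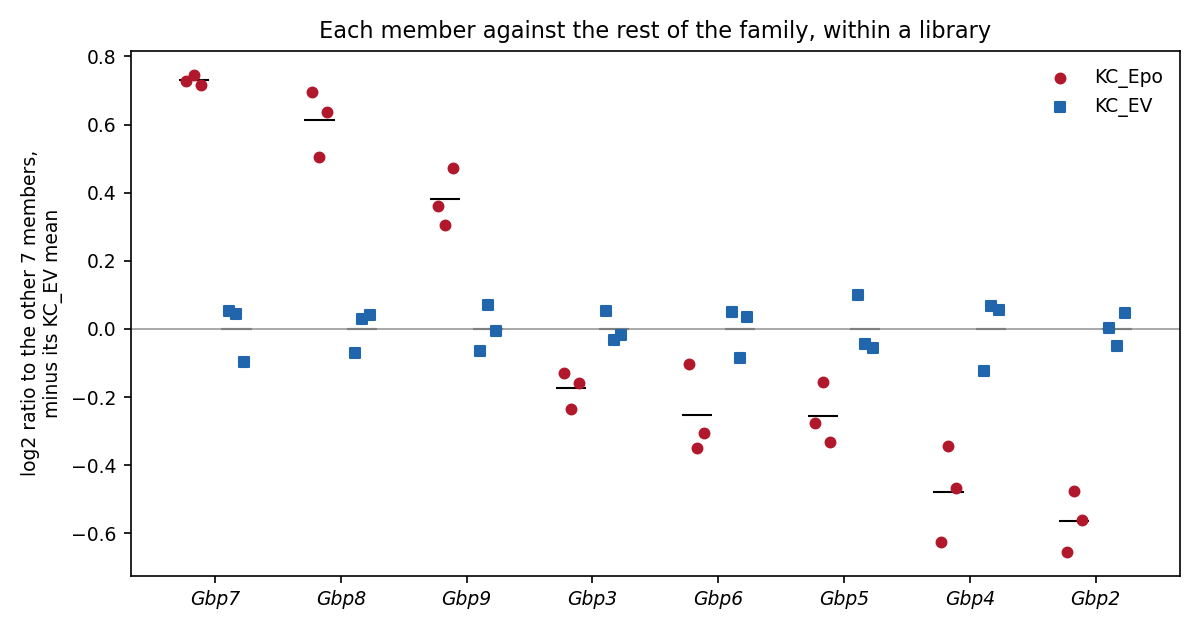
Log2 ratio of each member to the geometric mean of the other 7 in the same library, minus its mean in KC_EV; circles are KC_Epo libraries, squares KC_EV libraries and short bars the means. The points of the 2 groups do not overlap for any member, with Gbp7 highest at 0.73 and Gbp2 lowest at -0.56.

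Per length, the make-up of the 8 members shifted toward Gbp8. Levels were divided by the length of all annotated exons of a gene, in CPM per kilobase. Gbp8 stood at 161.9 ± 1.90 CPM per kilobase in KC_Epo and 107.7 ± 1.66 in KC_EV (SD, n = 3 each). It made up 44.4 ± 1.67% of the summed level of the 8 members in KC_Epo and 33.8 ± 0.843% in KC_EV. Gbp2 made up 11.7 ± 0.884% in KC_Epo and 18.1 ± 0.530% in KC_EV, and Gbp7 7.71 ± 0.245% in KC_Epo and 5.49 ± 0.323% in KC_EV. Below Gbp8, the KC_Epo levels per kilobase were 58.8 for Gbp3, 42.7 for Gbp2, 38.8 for Gbp9, 28.2 for Gbp7, 21.6 for Gbp4, 10.1 for Gbp5 and 3.23 for Gbp6. In KC_Epo the libraries of Gbp2 and Gbp9 overlapped on this scale, and those of the other neighbours in that order did not. Gbp2b, outside the 8, had 60.6 ± 9.53 CPM per kilobase in KC_Epo and 120.3 ± 4.59 in KC_EV (SD, n = 3 each). Its KC_EV mean was above that of Gbp8.

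Divided by coding length instead, Gbp8 remained highest, at 354.0 CPM per coding kilobase in KC_Epo, and Gbp5 and Gbp6 lowest, at 37.8 and 10.5. Between them the order was Gbp9, Gbp3, Gbp4, Gbp7 and Gbp2, from 108.2 to 60.7, so the middle of the order depends on the length used. The summed level of the members was 1464 ± 57.1 CPM in KC_Epo and 1279 ± 45.1 CPM in KC_EV (SD, n = 3 each; exact two-sided permutation p = 0.1, the smallest possible). As a share of all counts without scaling it was 0.136 to 0.143% in KC_Epo and 0.130 to 0.139% in KC_EV, which overlap.

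Close relatives by sequence were found on both sides. The closest pair of members by coding sequence was Gbp8 and Gbp4, at 92.9% nucleotide identity, of which Gbp8 rose and Gbp4 fell. Gbp8 and Gbp9, both of which rose, were 90.3% identical. Gbp7 and its chromosome 3 neighbour Gbp3 were 78.3% identical, and Gbp3 did not pass the test. Gbp2 and Gbp5 were 67.9% identical. Gbp2b, the closest relative of Gbp2 at 82.5%, had 4469, 6133 and 3785 counts in KC_Epo 1 to 3, against 11248, 10365 and 11286 in KC_EV 1 to 3. Its log2 fold change was -0.99 ± 0.10 (SE, edgeR adjusted p = 4.04e-05), a larger fall than that of Gbp2. The groups did not overlap in CPM.

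Such relatives can share reads, and the treatment of such reads in the authors' counting is unstated in the sources used here. Of all 50-base stretches in the annotated transcripts, 2.26% were shared with another family gene for Gbp7, 2.03% for Gbp2 and 0% for Gbp5. The share was 18.1% for Gbp8, 8.05% for Gbp9 and 7.53% for Gbp4. It was 49.9% for Gbp6, mostly with Gbp10, which is 98.4% identical to it in coding sequence. Gbp10 had 1, 10 and 13 counts in KC_Epo 1 to 3, against 26, 37 and 27 in KC_EV 1 to 3. The value of Gbp6 is therefore uncertain, and those of Gbp8, Gbp9 and Gbp4 rest on more shared sequence than those of the chromosome 3 members.

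Promoter sequence was at hand for the 4 members on chromosome 3, which include the member that rose most, Gbp7, and the member that fell most, Gbp2. The windows are from RefSeq on build GRCm38.p6, plus strand, and run from 250 bases before to 50 bases after a transcription start, so they are 300 bases long. They were searched for the core of the interferon-stimulated response element (ISRE), which reads GAAA, any 2 bases and GAAA, on both strands, and which IRF factors bind. They were also searched for the gamma-activated site (GAS), TTCNNNGAA, which reads the same on both strands and is bound by STAT dimers. Capitals mark the matches. The windows are chr3:142530086-142530385 for Gbp7, chr3:142559794-142560093 for Gbp3, chr3:142496684-142496983 for Gbp5 and chr3:142620413-142620712 for Gbp2.
Gbp7: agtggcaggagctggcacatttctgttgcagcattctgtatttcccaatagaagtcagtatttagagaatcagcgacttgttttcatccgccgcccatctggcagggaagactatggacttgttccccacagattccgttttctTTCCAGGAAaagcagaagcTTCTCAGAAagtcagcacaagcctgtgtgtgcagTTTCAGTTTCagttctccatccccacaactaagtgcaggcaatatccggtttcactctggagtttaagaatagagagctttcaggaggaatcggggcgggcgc
Gbp3: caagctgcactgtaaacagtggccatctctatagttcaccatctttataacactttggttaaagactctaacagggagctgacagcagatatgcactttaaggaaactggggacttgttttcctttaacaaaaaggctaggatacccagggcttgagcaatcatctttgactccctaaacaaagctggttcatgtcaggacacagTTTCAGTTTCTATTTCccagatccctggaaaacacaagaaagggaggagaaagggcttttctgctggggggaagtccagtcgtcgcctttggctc
Gbp5: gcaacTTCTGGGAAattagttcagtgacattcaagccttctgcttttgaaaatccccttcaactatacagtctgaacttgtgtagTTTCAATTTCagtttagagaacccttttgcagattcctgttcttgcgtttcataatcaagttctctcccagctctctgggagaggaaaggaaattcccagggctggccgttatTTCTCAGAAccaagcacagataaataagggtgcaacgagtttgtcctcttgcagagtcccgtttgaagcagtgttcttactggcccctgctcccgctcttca
Gbp2: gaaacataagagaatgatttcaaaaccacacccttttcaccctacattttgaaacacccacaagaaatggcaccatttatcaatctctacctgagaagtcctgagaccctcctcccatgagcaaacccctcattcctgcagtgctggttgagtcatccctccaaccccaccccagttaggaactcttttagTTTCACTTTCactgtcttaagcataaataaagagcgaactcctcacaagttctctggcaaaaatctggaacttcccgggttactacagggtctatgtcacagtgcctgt

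Each of these windows held an ISRE core, a match present in 3.44% of 32851 promoter windows of the same length. The match began at base -53 in Gbp7 and at -59 in Gbp2, counted from the start site. Gbp3 had a pair of overlapping matches at -45 and -39, and Gbp5 had its match at -165. A second annotated start of Gbp3 had neither motif in its window. The GAS letters were found in Gbp7, at -106 and -87, and in Gbp5, at -245 and -52, but not in the windows of Gbp3 and Gbp2. They occur in 8.30% of all windows, and both motifs together in 0.454%. Gbp7 and Gbp5 held the same motifs in the same numbers. The part of these motifs in the differences between groups was not tested. A match is a run of letters and not a measured binding site. Gbp4, Gbp6, Gbp8 and Gbp9 are without a printed promoter here.

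**Figure D4:**
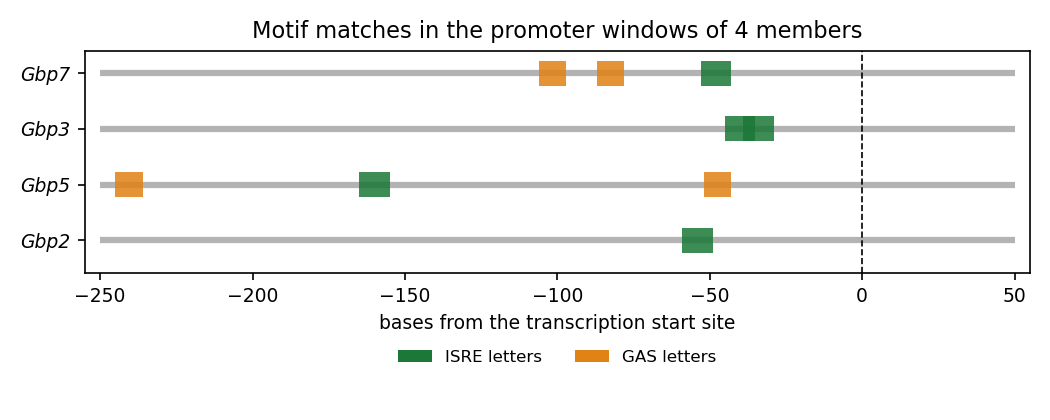
Places of the ISRE letters (green) and GAS letters (orange) in the promoter windows of 4 members, in bases from the transcription start site. Gbp7 and Gbp5 hold both, with GAS matches at -106 and -87 in Gbp7, and Gbp3 and Gbp2 hold the ISRE letters alone.

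The ligand and the signalling chain that induce GBPs were followed next. Ifng, the interferon-gamma ligand made by T and NK cells, was low, with 83, 64 and 56 counts in KC_Epo 1 to 3, against 120, 170 and 223 in KC_EV 1 to 3. It fell by 1.12 on the log2 scale (SE 0.27, edgeR adjusted p = 0.00782). With KC_EV 3 left out it no longer passed (-0.92, adjusted p = 0.0539). Ifngr1, the ligand-binding chain of its receptor, averaged 382.8 ± 14.9 CPM in KC_Epo and 318.6 ± 15.3 CPM in KC_EV (SD, n = 3 each). Its log2 fold change of 0.26 (adjusted p = 0.0137) lost the call without KC_EV 2, KC_EV 3 or KC_Epo 3, with adjusted p of 0.0741, 0.0624 and 0.0652, and with library sizes only (0.11, adjusted p = 0.214). Of 10 interferon ligands and receptors tested, 4 rose and 2 fell, with a median of -0.15. Over the 16 alternatives the first count ran from 1 to 4 and the second from 1 to 5, with the 4 reduced to 2 without KC_EV 2, KC_EV 3 or KC_Epo 3. The 2 that fell became 1 without KC_EV 1, KC_EV 2, KC_EV 3 or KC_Epo 1.

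Beside Ifng, the summed T and NK cell markers were 79.7 to 113 CPM in KC_Epo and 99.1 to 118 CPM in KC_EV, and 1 of 12 tested, Lck, fell, or 2 without KC_Epo 2. None of these markers was at 0 in either group. Their part in the Ifng result was not tested.

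Among 13 genes on a list of JAK-STAT, IRF and other transcription regulators, 3 rose and 5 fell, with a median log2 fold change of -0.021. Batf2, Nlrc5 and Ciita on this list are neither JAK-STAT nor IRF factors, and Nlrc5, at -0.43, and Ciita are among the 5. Over the 16 alternatives the first count ran from 2 to 4 and the second from 5 to 7. The 3 became 2 without KC_EV 1, KC_EV 2, KC_EV 3 or KC_Epo 3. Irf1, which interferon-gamma induces and which binds GBP promoters, stood at 344.7 ± 6.79 CPM in KC_Epo and 448.7 ± 9.06 CPM in KC_EV (SD, n = 3 each). It fell by 0.38 on the log2 scale (SE 0.07, edgeR adjusted p = 0.00108). This fall was close in size to those of Gbp2 and Gbp4, and a link to them was not tested. Ciita, the activator of MHC class II genes, fell by 1.36. Irf8, a myeloid IRF, and Irf7, an amplifier of type I interferon responses, rose by 0.48 ± 0.08 and 0.68 ± 0.09.

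Of 8 inhibitors of interferon signalling, 1 rose and 1 fell. Over the 16 alternatives 1 to 2 rose and 1 to 3 fell, with 2 falling without KC_Epo 1 and 2 rising without KC_Epo 1 or KC_Epo 2. Socs1, which blocks JAK kinases and is itself induced by interferons, stood at 3.86 ± 0.471 CPM in KC_Epo and 10.2 ± 1.66 CPM in KC_EV, at -1.39 ± 0.19. Ptpn1, a phosphatase that acts on JAK2 and TYK2, rose by 0.58 ± 0.08.

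The other interferon-inducible GTPases, some of which work beside GBPs on pathogen vacuoles, numbered 9 tested, of which 6 fell and 2 rose. All 6 that fell belong to the immunity-related GTPases, among them Tgtp2 at -1.14 ± 0.12, whose reads can be shared with its near copy Tgtp1, and Irgm1, a regulator of that family, at -0.44 ± 0.07. Mx1, an antiviral GTPase induced by type I interferon, rose by 0.65 ± 0.07. Mx1 passed with Gvin1, a very large GTPase, whose adjusted p was 0.0482. The 2 that rose became 1 in 10 of 16 alternatives, DESeq2, limma-voom and 4 of the 6 fits without 1 library among them (KC_EV 1, KC_EV 3, KC_Epo 2 or KC_Epo 3).

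The interferon response lists split by type. Of 18 interferon-gamma response genes tested outside the GTPases, 15 fell and 1 rose, with a median of -0.67. H2-Ab1, an MHC class II chain, had the value -2.19 ± 0.11, and H2-Aa had -1.96 ± 0.10. MHC class II genes are also abundant in dendritic cells, of whose 9 markers 5 fell, Xcr1 by 3.01, and 9 of 12 endothelial markers fell too. The part of these cells in the fall of the interferon-gamma response genes was not tested.

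Of 23 type I interferon response genes, 16 rose and 0 fell by edgeR, with a median of 0.41. At an unadjusted p under 0.05, and by DESeq2 and limma-voom, 0 were lower as well. Oasl2, an antiviral protein of the OAS family, stood at 275.3 ± 16.3 CPM in KC_Epo and 192.0 ± 13.1 CPM in KC_EV, a log2 fold change of 0.52 ± 0.08. The other 7 of the 23 did not pass. The count of 16 ran from 13 to 17 over the 16 alternatives and was smaller in 9 of them. With library sizes only, 2 of the 23 were lower. Irf1, Ciita and Socs1 also count among the 18, and Irf7 and Mx1 among the 23. Irf7, Mx1 and Oasl2, the genes with the smallest adjusted p on their list, had log2 fold changes between those of Gbp9 and Gbp7. A link to these members was not tested.

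**Figure D5:**
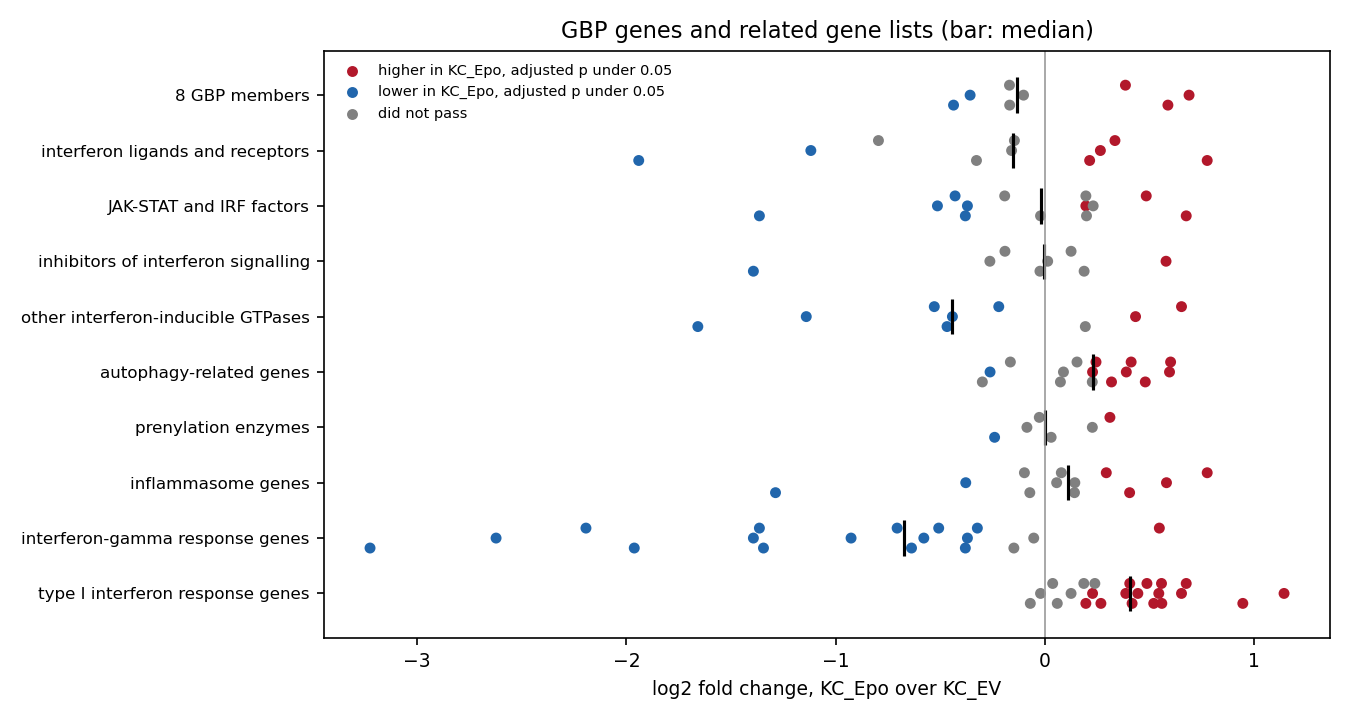
Log2 fold change, KC_Epo over KC_EV, of the 8 GBP genes and of the tested genes on 9 related lists, with red points higher, blue points lower and grey points not past an adjusted p of 0.05; black bars are medians. Interferon-gamma response genes centre on -0.67, type I interferon response genes on 0.41, and the GBP genes lie on both sides of 0.

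Genes that act with or after GBPs were read from 3 more lists. Of 15 autophagy-related genes, whose conjugation machinery places GBPs on vacuoles, 8 were higher and 1 was lower. The 8 became 5 without KC_EV 3 or KC_Epo 3 and 4 with library sizes only. The lower call was lost in 11 of 16 alternatives, among them DESeq2, limma-voom and 5 of the 6 fits without 1 library (all but KC_Epo 2, where 2 were lower), and 3 were lower with library sizes only. Atg7, the enzyme that activates the conjugated proteins, rose by 0.60 ± 0.10, Lgals3, a galectin that marks broken vacuoles, by 0.60 ± 0.08 and Sqstm1, an autophagy receptor, by 0.48 ± 0.07. Of 6 prenylation enzymes, which modify Gbp2 and Gbp5, Rce1 was higher at 0.31 and Fnta lower at -0.24. These calls were lost in 8 and 9 of 16 alternatives.

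Among 12 inflammasome genes, 4 rose and 2 fell, or 4 fell with library sizes only. Il18, a cytokine matured by caspase 1, rose by 0.78 ± 0.07 and Ninj1, which ruptures the membrane of dying cells, by 0.58 ± 0.10, whereas Il1b fell by 1.29. Casp4, the mouse gene for caspase-11, averaged 34.0 ± 2.67 CPM in KC_Epo and 44.2 ± 0.457 CPM in KC_EV, at -0.38 ± 0.08 (edgeR adjusted p = 0.00477). Aim2, the DNA sensor, stood at 161.3 ± 13.2 CPM in KC_Epo and 146.3 ± 2.08 CPM in KC_EV and did not pass (0.14, adjusted p = 0.167).

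The genes with profiles most like those of single members were found among 10101 other genes of at least 5 CPM. Likeness was the root mean square difference in log2 CPM over the 6 libraries after centring each gene. The difference between groups enters this measure, so genes with a similar fold change come out near, and shared regulation was not tested. Nearest to Gbp7 were Rnf149 at 0.038, Atp13a3 at 0.044 and Clcn5 at 0.050. Their log2 fold changes were 0.67, 0.71 and 0.69, against 0.69 for Gbp7. Nearest to Gbp8 were Nupl2 at 0.020, Fabp7 at 0.026 and Pkp4 at 0.030. Gbp9 was nearest to Keap1 at 0.027, Dera at 0.028 and Ifi203 at 0.028. Gbp2 was nearest to Sprtn at 0.032, Csrp1 at 0.032 and Tmem176a at 0.036, and Gbp4 to Ino80d at 0.030, Rnpc3 at 0.041 and Tiparp at 0.044. Within the family, Gbp2 and Gbp4 differed by 0.077, Gbp7 and Gbp8 by 0.0996, and Gbp2 and Gbp7, the farthest pair, by 0.569.

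Libraries of KC_Epo also differed from each other in these genes. KC_Epo 2 was the highest of its group for 5 of 8 members, namely Gbp2, Gbp3, Gbp4, Gbp5 and Gbp7, with Gbp4 at 186.3 CPM there and at 141.8 and 158.3 CPM in KC_Epo 1 and 3. Hepatocyte markers summed to 5131 CPM in KC_Epo 2 and to 17916 and 10657 CPM in KC_Epo 1 and 3, and sinusoidal endothelial markers to 2432 CPM in KC_Epo 2 and to 3293 and 2739 CPM in KC_Epo 1 and 3.

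Hepatocyte markers summed to 5131 to 17916 CPM in KC_Epo and 2263 to 2804 CPM in KC_EV, with 6 of 12 higher and 1 lower. The count of 6 rested on single libraries: it was 0 without KC_EV 2, KC_EV 3 or KC_Epo 3, 1 without KC_EV 1 and 3 without KC_Epo 1, where 3 were lower. Erythroid markers summed to 606 to 1109 CPM in KC_Epo and 33.6 to 43.4 CPM in KC_EV, with 7 of 8 higher. This count of 7 held in all 16 alternatives. Monocyte markers summed to 456 to 674 CPM in KC_Epo and 414 to 521 CPM in KC_EV, with 2 of 8 higher and 2 lower. Without 1 library, 1 to 2 were higher and 1 to 3 lower: only without KC_Epo 2 were 2 higher, and 1 was lower without KC_EV 3 or KC_Epo 3. Neutrophil markers summed to 29.0 to 32.1 CPM in KC_Epo and 6.87 to 242 CPM in KC_EV, with 0 of 7 tested past the threshold by edgeR, DESeq2 or limma-voom, and 0 at an unadjusted p under 0.05. Without KC_EV 1, 5 of them were lower. No marker on these lists was at 0 throughout a group. The part of these cells in the GBP differences was not tested. Without KC_EV 1 and KC_Epo 1 together, an alternative added after seeing the data, the same number of members rose and fell, 3 and 2.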

How the data were processed

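The deposited table holds read counts per gene symbol, not normalized, for 6 polyA libraries of sorted Kupffer cells made with the Illumina TruSeq stranded mRNA kit, per the labels' protocols. The submitters' processing notes list build GRCm39 and, without roles, HTSeq 0.11.2, STAR 2.7.3a, Bowtie2 2.5.1 and FastQC 0.11.8. Strand and multi-mapping options are unstated in the sources used here. A total of 12 symbols had 2 rows, and the larger row kept the symbol.

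The count analysis used edgeR 4.0.16 in R 4.3.3 (filterByExpr, TMM factors, robust quasi-likelihood fit on group, F test); p-values were adjusted by Benjamini-Hochberg over 13120 genes. SEs were taken from the F statistic and 95% intervals from its t distribution. Exact permutation tests used scipy 1.17.1. The fit and the ratio were tested on simulated data. No library was a copy of another of its group: chi-square per gene was at least 6.15. Exon and coding lengths, shared 50-base stretches and coding identity came from GENCODE M21 on GRCm38, another build than the authors', so no gene coordinates beyond the promoter windows are given. Precision per gene is limited by the counts given.

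The members and all lists were chosen with earlier results of these data known. The named genes were all 8 members, up to 3 genes per list with the smallest adjusted p past 0.05, and Ifng, Ifngr1, Irf1, Irf8, Socs1, Aim2 and Casp4 in every case, with the 3 nearest profiles per member. Lck, Adgre1, Cdh5, Gvin1, Zbtb46, Batf3 and Clec9a, chosen after their values were seen, and the symbols of Gbp2b and Gbp10 complete the names; some genes the rule names are left out for length, and 1 is not reported here. Alternatives were RLE and upper-quartile factors, library sizes only, a fit without the robust option, no filter, at least 1 CPM in 3 libraries, DESeq2 1.42.0, the replicate number as a block, limma-voom (limma 3.58.1), a pseudocount of 0.5 CPM in the ratios, and each library left out in turn.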

Additional observations from a re-analysis of the deposited data

How the results depend on the processing

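Of the 8 members, 3 were higher under all 16 alternatives. The number lower was 2, except 5 with library sizes only, and 1 to 2 when 1 library was left out. Log2 fold changes ranged from 0.53 to 0.77 for Gbp7, 0.43 to 0.60 for Gbp8, 0.23 to 0.43 for Gbp9, -0.60 to -0.34 for Gbp2 and -0.52 to -0.26 for Gbp4, and no member changed direction. Over all genes, 2219 were higher and 2015 lower; with library sizes only the counts were 1193 and 3616. Leaving out 1 library gave 1477 to 2410 higher and 1251 to 2147 lower, the lowest of both without KC_Epo 3; without KC_EV 1 and KC_Epo 1 together, added after seeing the data, the counts were 2481 and 2386. The value of Aim2, which was not called, was -0.017 with library sizes only. The member ratios kept their sign in all 64 repeats (a pseudocount of 0.5 CPM or libraries left out); Gbp7 ranged from 0.68 to 0.76. Of the 544 repeats of list counts, 106 moved by more than 1.5 times or went to or from 0.

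Same-numbered libraries did not deviate together (correlations of -0.13, -0.19 and -0.018), and no library correlated best with its own number. With the replicate number as a block, 1800 genes were higher and 1558 lower, and 3 members were higher and 2 lower. For Gbp7 the blocked value was 0.69 (edgeR adjusted p = 0.00105), for Gbp8 0.59, for Gbp9 0.38, for Gbp2 -0.44 and for Gbp4 -0.37. The block changed no call of a member.

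With 3 libraries a group, spread between libraries sets the intervals, and the ratio tests cannot reach 0.05.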
